A study of Canis lupus familiaris with 8 samples.

Results

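SAA1, LOC403585 (a serum amyloid A gene), SERPINA1, ITIH3 and S100P were examined in the anterior mitral valve leaflet of 4 affected and 4 control dogs. The 5 genes had 17 probe sets by symbol in the platform annotation, out of 10549 probe sets with 1 symbol, which covered 6540 genes. The genes had been selected by their signal in affected against control leaflets on these same arrays, so the comparison between the groups is a description for them and carries no test. The affected dogs had degenerative mitral valve disease (DMVD), a myxomatous thickening of the leaflets. Affected 1 was a Lhasa apso, affected 3 a Dachshund, and affected 2 and affected 4 were Miniature poodles. All 4 control dogs were beagle crosses, so disease and breed cannot be told apart. Every leaflet had been frozen in liquid nitrogen, and each dog gave 1 Affymetrix array of total RNA. Age, sex and other treatment were not given in the sources used here.

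Acute phase proteins are plasma proteins whose level follows inflammation. Most are made by the liver in answer to interleukin-6 and interleukin-1, which act through STAT3, C/EBP and NF-kB, and several are also made outside the liver by macrophages, epithelium or fat. Serum amyloid A (SAA) is a small protein carried on high-density lipoprotein and is a major acute phase protein of dogs. SERPINA1 encodes alpha-1-antitrypsin, the inhibitor of neutrophil elastase. ITIH3 encodes a heavy chain of the inter-alpha-trypsin inhibitor family, whose heavy chains are transferred to hyaluronan in the extracellular matrix. S100P encodes a calcium-binding protein of the S100 family, known in humans as a ligand of the receptor AGER, and is not a classical acute phase protein.

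Values are probe set signals of MAS5 (the Affymetrix algorithm) on a linear scale, scaled to a common trimmed mean of 500.1. For differences, signals under 34.2 were set to that floor, and log2 was taken. A difference is the mean log2 signal of affected dogs minus that of control dogs. In bulk tissue, more cells of a type and more RNA per cell cannot be told apart.

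The arrays carried leaflet stroma. DCN, a proteoglycan of collagen fibrils, had signals from 19370 to 24076 in affected dogs and from 13116 to 24071 in control dogs. Cardiac muscle was also present: the atrial light chain MYL7 ranged from 1044 (affected 3) to 16240 in affected dogs and from 3362 to 21914 (control 2) in control dogs. Control 2 stood apart from the rest. Its correlation with the other dogs over the tested probe sets did not exceed 0.854, against best values from 0.904 to 0.954 for the other 7. The median signal per array ranged from 124 to 191 in affected dogs and from 133 to 157 in control dogs.

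Among the 17 probe sets, the largest difference was that of SAA1. SAA1 (probe set 1592337_at) had signals of 13459, 2276, 1380 and 9138 in affected 1 to 4, against 190, 45.4, 173 and 167 in control 1 to 4. The groups did not overlap, and the lowest affected dog, affected 3, lay 7.28 times above the highest control, control 1. The mean log2 signal was 12.11 ± 1.57 in affected dogs and 6.97 ± 0.98 in control dogs (SD, n = 4 each). Against the control mean, SAA1 was 107.2 times as high in affected 1, 72.8 times in affected 4 and 18.1 times in affected 2, with affected 3 the lowest of the 4. The difference of 5.14 ranged from 4.61 without affected 1 to 5.70 without affected 3, and it was 4.65 without control 2, whose signal was the lowest.

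**Figure D1:**
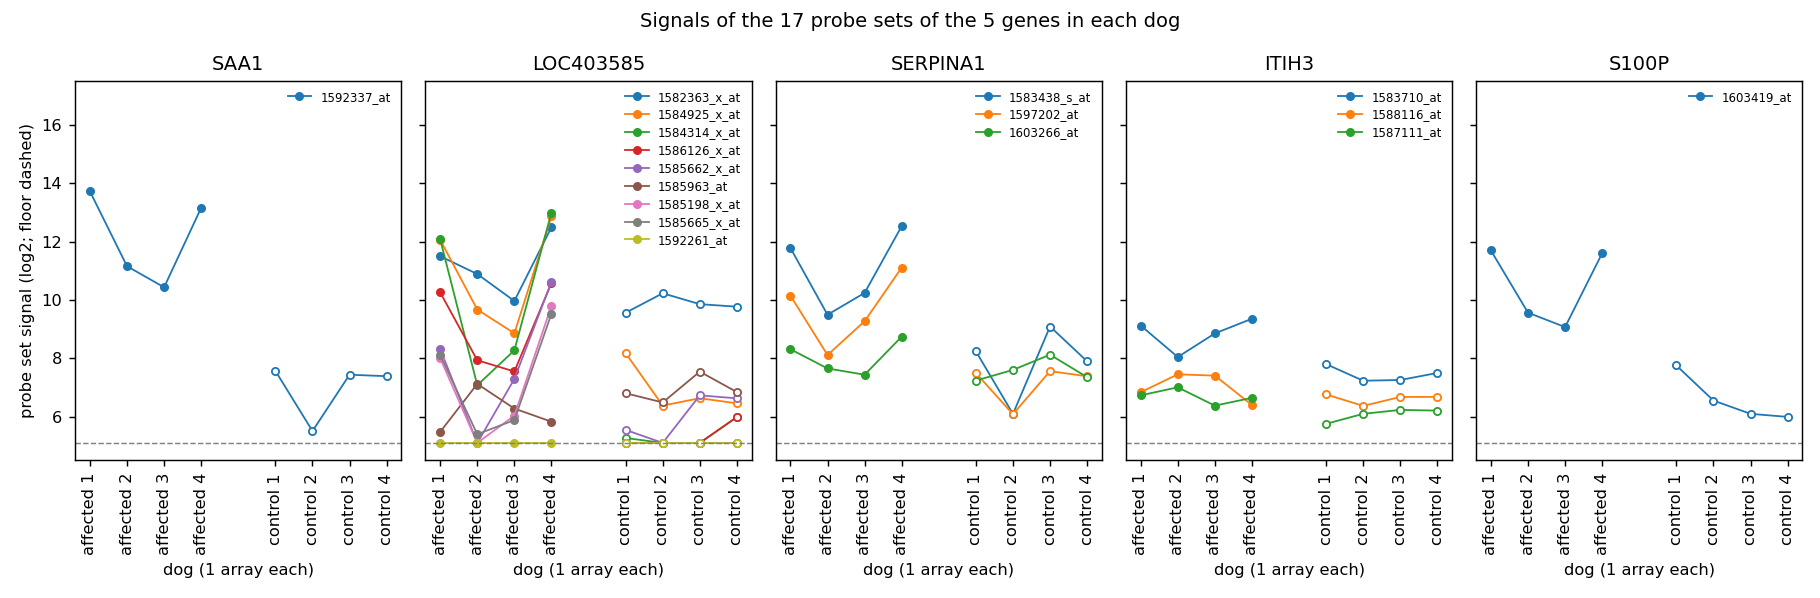
Log2 signal (vertical axis) of each of the 17 probe sets in each dog (horizontal axis, 1 array per dog), with 1 panel per gene, filled points for affected and open points for control dogs. Lines only join points of 1 probe set, and the dashed line is the floor of 5.10. SAA1, S100P and most probe sets of LOC403585 were highest in affected 1 and affected 4, and the only SAA1 value under 7 was that of control 2.

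LOC403585 was covered by 9 probe sets, which did not behave as one. Probe set 1584925_x_at had signals of 4258, 814, 462 and 7448 in affected dogs, against 289, 83.1, 99.0 and 87.6 in control dogs. Its groups did not overlap, the difference was 3.95, and control 1 was the highest control by a wide margin. Probe set 1584314_x_at had 4317, 135, 309 and 8137 in affected dogs, against 38.5, 23.6, 22.0 and 63.1 in control dogs. Its difference was 4.74, with 2 controls at the floor, and it was 3.78 without affected 4. Its affected dogs were spread over a 60.4-fold range, the widest of the 17 probe sets once signals under the floor were raised to it. Probe set 1586126_x_at had 1223, 244, 187 and 1527 in affected dogs, against 22.5, 18.4, 32.5 and 63.3 in control dogs. Here 3 controls were at the floor, and the difference of 3.76 was 2.44 with a floor at the 40th percentile.

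The brightest LOC403585 probe set differed by less. Probe set 1582363_x_at had signals of 2887, 1891, 997 and 5754 in affected dogs, against 754, 1197, 925 and 870 in control dogs. Affected 3 lay below control 2, so the groups overlapped, and the difference was 1.36. It was 0.93 without affected 4, and the groups no longer overlapped without affected 3 or without control 2. Affected 4 and affected 1 were its highest dogs, as in 1584925_x_at and 1584314_x_at.

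The remaining 5 probe sets of LOC403585 did not share a direction. Signals of 1585665_x_at were 276, 42.0, 58.9 and 736 in affected dogs, with all 4 controls at the floor. By mean log2 signal, affected dogs were 4.38 times as high as the floor, and so at least 4.38 times as high as the controls. Affected 2 was only 1.23 times as high as the floor. Those of 1585198_x_at were 256, 10.9, 65.4 and 890 in affected dogs, again with all 4 controls at the floor, which gives 4.39 times by mean log2 signal. Affected 2 was at the floor as well, so that value is not a lower bound. In 1585662_x_at the groups overlapped (319, 8.40, 156 and 1576 in affected dogs, against 46.7, 11.5, 106 and 98.7 in control dogs), and its difference of 1.83 was 0.90 without affected 4. Without affected 4 the differences of 1585198_x_at and 1585665_x_at were 1.28 and 1.36. A single probe set ran the other way, 1585963_at, with 44.4, 139, 77.4 and 56.6 in affected dogs, against 111, 89.5, 186 and 114 in control dogs. It differed by -0.74, and affected 2 lay among the controls. Probe set 1592261_at was at the floor in all 8 dogs.

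The annotation's identity of these probe sets has limits. 7 of the 9 LOC403585 probe sets carry the suffix _x_at, which Affymetrix gives to probe sets that share probes with other sequences. Among RefSeq's genes for the UU_Cfam_GSD_1.0 assembly, LOC751814, LOC403585 and SAA1 are consecutive, with SAA as another name of LOC751814 and LOC403585. The annotation's gene identifier for SAA1 was not in that table, where the symbol SAA1 belongs to another identifier, while the other 4 genes matched by identifier. Which SAA gene each probe set reports was therefore not settled, nor whether every one of them reports SAA.

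SERPINA1 had 3 probe sets. The brightest, 1583438_s_at, had signals of 3513, 719, 1207 and 5900 in affected dogs, against 302, 68.1, 543 and 238 in control dogs. The groups did not overlap, but the lowest affected dog, affected 2, lay only 1.32 times above the highest control, control 3. The mean log2 signal was 11.01 ± 1.39 in affected dogs and 7.83 ± 1.26 in control dogs (SD, n = 4 each), a difference of 3.18, which was 2.60 without control 2. Probe set 1597202_at had 1133, 276, 616 and 2202 in affected dogs, against 180, 67.7, 188 and 167 in control dogs. It differed by 2.53, also without overlap. Probe set 1603266_at had 317, 201, 173 and 427 in affected dogs, against 151, 194, 278 and 163 in control dogs, and the groups overlapped. Its difference of 0.46 was 0.22 without affected 4.

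ITIH3 had smaller differences than SAA1, SERPINA1 and S100P in their brightest probe sets. Probe set 1583710_at had signals of 557, 263, 461 and 654 in affected dogs, against 223, 150, 153 and 180 in control dogs. All affected dogs lay above all controls, with a gap of 1.18 times between affected 2 and control 1, and this gap closed under quantile normalization and under median centring. The mean log2 signal was 8.84 ± 0.57 in affected dogs and 7.44 ± 0.27 in control dogs (SD, n = 4 each), a difference of 1.40. Probe set 1587111_at, which was under the filter on dim probe sets, had 106, 128, 83.0 and 99.8 in affected dogs, against 53.9, 68.3, 74.9 and 73.7 in control dogs, and differed by 0.62 without overlap. That difference was 0.11 with a floor at the 40th percentile. Probe set 1588116_at had 114, 175, 169 and 84.2 in affected dogs, against 108, 82.5, 102 and 102 in control dogs. Here affected 4, the highest dog in 1583710_at, was below 3 controls, and the difference of 0.40 was 0.26 without affected 2.

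S100P had 1 probe set, 1603419_at, with signals of 3308, 756, 537 and 3102 in affected dogs, against 215, 93.7, 68.3 and 63.5 in control dogs. The groups did not overlap, and affected 3, the lowest affected dog, lay 2.49 times above control 1, the highest control. The mean log2 signal was 10.48 ± 1.36 in affected dogs and 6.60 ± 0.81 in control dogs (SD, n = 4 each). The difference of 3.88 ranged from 3.48 without affected 1 to 4.35 without affected 3.

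**Figure D2:**
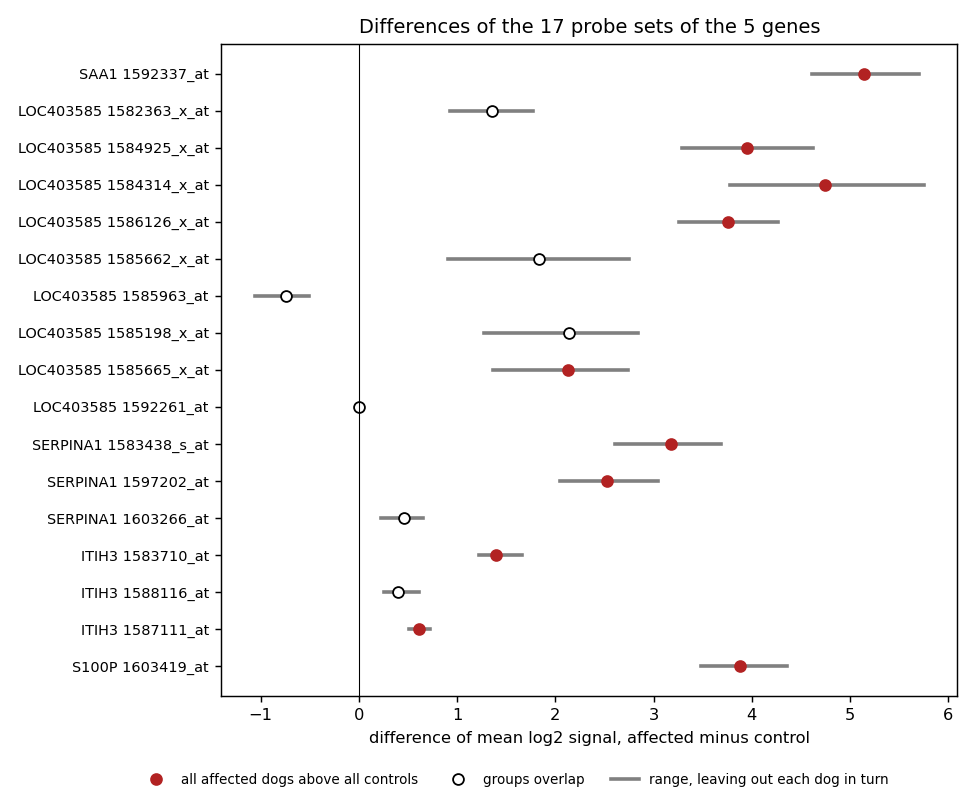
Difference of mean log2 signal, affected minus control (horizontal axis), for each of the 17 probe sets (rows, grouped by gene). Red points mark probe sets in which all 4 affected dogs lay above all 4 controls, open points those with overlap, and grey bars the range when each dog was left out in turn. The differences ran from -0.74 for 1585963_at to 5.14 for SAA1.

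Over the 17 probe sets, 15 had a higher mean in affected dogs, 1 a lower mean and 1 was at the floor throughout, with a median difference of 2.13. All affected dogs lay above all controls in 10 of the 17. Of all 23836 probe sets on the array other than controls, 1.81% did so, and nothing is read from that contrast, since the genes were picked on it. 13 of the 17 passed the filter on dim probe sets, 8 of them without overlap, beside 2.35% of the 14705 tested. In limma across those 14705 probe sets, 0 passed an adjusted p of 0.05 (0% called), the 13 included. The smallest adjusted p was 0.238, and 1151 probe sets had an unadjusted p under 0.05.

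Affected dogs were spread more widely than control dogs in most of the probe sets, which is given without a test. The SD over affected dogs was larger than that over control dogs in 16 of the 17 probe sets, and 11 of the 17 had an SD over affected dogs above 0.98, a value that 10% of the tested probe sets exceeded. For control dogs 2 of the 17 were above the matching value, which was also 0.98. In 6 of the 17 at least 1 control was at the floor, which narrows the control spread. LOC403585 alone gave 9 of the 17. How many of all tested probe sets had the larger SD in affected dogs was not counted. The median SD over all tested probe sets was 0.47 in affected dogs and 0.41 in control dogs. Affected 4 was the highest affected dog in 11 of the 17 probe sets, against 19.6% of all tested probe sets. Those 11 were probe sets of LOC403585, SERPINA1 and ITIH3, several per gene, so they are not separate readings. In SAA1 and S100P affected 1 was the highest. Affected 3 was the highest in 0 of the 17, against 22.4%. Affected 2 and affected 3 were each the lowest affected dog in 7 of the 17, against 19.5% and 32.8% of the tested. Among controls, control 2 was the lowest in 8 of the 17, against 36.1%.

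Breed was shared by 2 affected dogs. These Miniature poodles, affected 4 and affected 2, differed 4.02 times in SAA1, 8.21 times in SERPINA1 (1583438_s_at), 4.11 times in S100P and 2.48 times in ITIH3 (1583710_at), with affected 4 the higher each time.

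The dogs kept a similar order in several of the genes. Since the groups lie apart, a correlation over all 8 dogs includes the group difference, so the value after centring each group on its own mean is given beside it, as a description with no test. SAA1 and SERPINA1 (1583438_s_at) had a Pearson r of 0.94 over the 8 dogs and 0.86 after centring. SAA1 and the brightest LOC403585 probe set, 1582363_x_at, had 0.81 and 0.56, and the centred value was 0.83 without control 2. With 1585963_at the values were -0.66 and -0.37, and the centred one was -0.70 without control 2. For SAA1 and S100P these were 0.95 and 0.75. For SAA1 and ITIH3 (1583710_at) they were 0.92 and 0.63. The other ITIH3 probe sets did not share this order within the groups, with centred values of 0.08 (1587111_at) and -0.51 (1588116_at, -0.84 without control 2). All probe sets of a dog share 1 array, so array effects enter every one of these values.

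The genes with signals most like SAA1, by Pearson r over the 8 dogs among 7842 tested probe sets of other genes, were TMBIM6, a membrane protein of the endoplasmic reticulum (r = 0.98), the vitamin transporter SLC5A6 (0.97), the uridine phosphorylase UPP1 (0.96), MEGF9 (0.96) and DNAJC3, a co-chaperone of the endoplasmic reticulum (0.96). Those most like S100P were GMFG, an actin regulator of blood cells (0.97), DNAJC3 (0.97), SRGAP2 (0.97), the receptor EMR4 (0.96) and the co-stimulatory receptor CD40 (0.95). Most like SERPINA1 were PLEK, or pleckstrin, of platelets and leukocytes (0.98), C17H1orf54 (0.97), RAC2, a GTPase of blood cells (0.97), the fatty acid ligase ACSL5 (0.97) and the import receptor IPO4 (0.96). Because the group difference enters these values, genes that differ between the groups are favoured.

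The other positive acute phase genes differed by less than SAA1. Of 23 further listed genes, 9 were named on the array and 7 were tested, of which 0 passed the threshold, 6 had a higher and 1 a lower mean in affected dogs, and 2 lay wholly above the controls, beside 2.35% of all tested probe sets. Their median difference was 1.12, beside 0.01 over all tested probe sets. Without control 2 the median was 0.41, with 5 higher and 2 lower. CD14, which helps sense bacterial lipopolysaccharide, had signals of 6312, 3643, 3298 and 4004 in affected dogs, against 2142, 398, 985 and 1095 in control dogs, and did not overlap. CD14 is also a monocyte marker. FGA, the fibrinogen alpha chain, had 183, 186, 168 and 184 in affected dogs, against 118, 156, 136 and 121 in control dogs, close together though without overlap. The other fibrinogen chains FGB and FGG overlapped and differed by -0.29 and -0.09, and HPX, or hemopexin, which binds haem, by 0.06. Without control 2, FGG was at 0.01 and HPX at -0.016.

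Further acute phase genes moved with single dogs or with the floor. CP, the copper carrier ceruloplasmin, had 2098, 2903, 3400 and 3397 in affected dogs, against 1227, 300, 2431 and 3504 in control dogs. Its difference of 1.12 was 0.41 without control 2, and that of the complement component C3, 1.28, was 0.24 without it. HAMP, which encodes the iron hormone hepcidin, had 128, 118, 106 and 297 in affected dogs, against 113, 9.81, 26.1 and 90.8 in control dogs. Its difference of 1.33 was 0.52 with a floor at the 40th percentile. SERPINA3, or alpha-1-antichymotrypsin, was too dim to be tested, with 327, 22.4, 36.6 and 766 in affected dogs, against 7.21, 70.7, 31.2 and 68.7 in control dogs. As with SAA1 and S100P, affected 1 and affected 4 were the high dogs for SERPINA3. Its difference of 1.45 was 0.60 without affected 4.

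**Figure D3:**
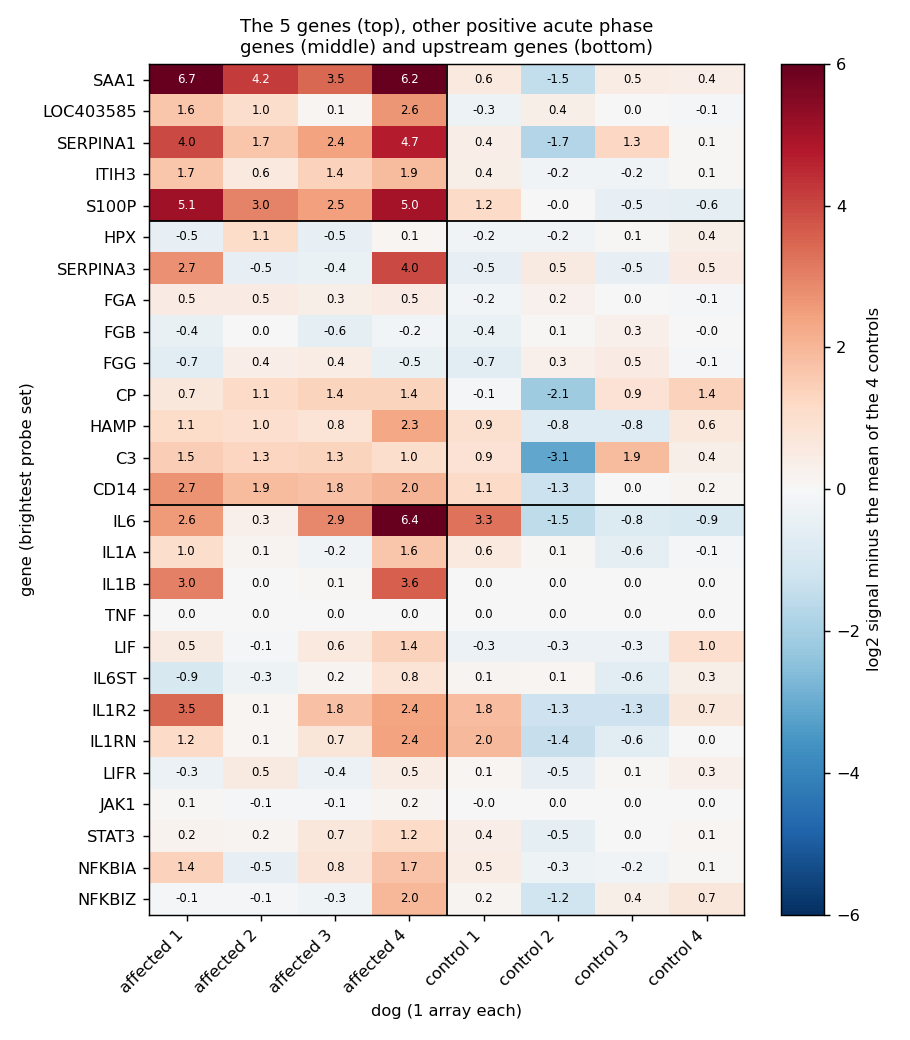
Log2 signal minus the mean of the 4 controls (colour and printed value) for each dog (columns) in the brightest probe set of the 5 genes (top), of 9 other positive acute phase genes (middle) and of 13 cytokine and signalling genes (bottom). SAA1 was 6.7 and 6.2 above the control mean in affected 1 and affected 4, while JAK1 stayed within 0.2 of it in every dog.

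Negative acute phase genes, whose plasma proteins fall in inflammation, lay on both sides of 0. Of 12 listed, 9 were named and 4 tested: 3 had a higher and 1 a lower mean, 0 passed the threshold, and all 4 overlapped, where 2.31% of tested probe sets lay wholly below the controls. Without control 2, 2 were higher and 2 lower. FETUB, a fetuin, differed by -0.53 and the antithrombin gene SERPINC1 by 0.40. ALB, or albumin, had 47.0, 74.7, 31.8 and 56.3 in affected dogs, against 20.3, 23.8, 70.5 and 52.0 in control dogs, and was under the filter. TTR, or transthyretin, which tissues other than liver also make, had 1568, 1988, 1382 and 1130 in affected dogs, against 1150, 955, 1899 and 1048 in control dogs. Of 21 hepatocyte markers 15 were named and 5 tested, with summed signals from 2702 to 4094 in affected dogs and from 2441 to 3933 in control dogs. TTR and FGB were the largest signals in that sum in every dog.

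Cytokines and signalling genes upstream of the acute phase overlapped between the groups. Of 31 listed, 13 were named and 9 tested, with 0 past the threshold, 8 higher, 1 lower, 0 without overlap and a median difference of 0.55. The median was 0.35 without affected 4, with 5 higher and 4 lower, and 0.37 without control 2, with 6 higher and 3 lower. Without control 1, 3 of the 9 lay wholly above the controls. Over all 14705 tested probe sets, between 446 and 1059 did so with 1 dog left out, against 345 with all dogs. IL6 had 572, 120, 728 and 8069 in affected dogs, against 943, 9.97, 54.4 and 51.2 in control dogs, so control 1 lay above 3 of the 4 affected dogs. Its difference of 3.03 was 1.92 without affected 4 and 4.12 without control 1. The neutrophil chemokine CXCL8, which was outside the list, had 5223, 314, 2025 and 7484 in affected dogs, against 921, 6.55, 36.4 and 39.4 in control dogs. Its difference was 4.77, with control 1 far above the other controls. IL1B, or interleukin-1 beta, had 282, 13.4, 35.9 and 414 in affected dogs, with all 4 controls at the floor, and was under the filter. Affected 1 and affected 4 were again its high dogs.

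Within the pathway, the decoy receptor IL1R2 had 899, 90.4, 276 and 425 in affected dogs, against 294, 5.85, 14.8 and 131 in control dogs, a difference of 1.93. NFKBIA, the inhibitor that NF-kB induces, had 9066, 2496, 5907 and 11190 in affected dogs, against 4769, 2761, 2975 and 3673 in control dogs. Its lowest dog was affected 2, below every control. The difference of 0.84 was 0.56 without affected 4 and 1.28 without affected 2. TNF was at the floor in all 8 dogs.

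Receptors and carriers of SAA and S100P were 9 listed genes, of which 4 were named and tested and 0 passed. CD36, a scavenger receptor, had 342, 481, 169 and 122 in affected dogs, against 900, 1921, 1031 and 888 in control dogs, with all affected below all controls (-2.22). TLR4 differed by 1.11 (0.66 without control 2) and CLU, or clusterin, a chaperone of plasma lipoproteins, by 0.70 (0.34 without control 2), both with overlap. AGER overlapped, with 129, 186, 51.7 and 191 in affected dogs, against 51.2, 75.3, 179 and 129 in control dogs.

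Among partners of ITIH3, 4 of 18 further listed genes were named and tested, and 0 passed. ITIH1, another heavy chain of the family, had 650, 416, 228 and 134 in affected dogs, against 69.9, 81.3, 99.8 and 123 in control dogs, without overlap and with a difference of 1.72. Its highest dog was affected 1 and its lowest affected 4, which was the highest for ITIH3. ITIH2 overlapped, at 162, 245, 172 and 152 in affected dogs, against 226, 177, 343 and 85.2 in control dogs. The hyaluronan receptor CD44 differed by 0.81, and by 0.42 without affected 4, and the hyaluronidase HYAL1 by 0.50.

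Other members of the SERPINA1 and S100P families lay on both sides of 0. Of 29 further serpins and serine proteases, 10 were named and 8 tested, 4 with a higher and 4 with a lower mean, a median difference of -0.02, 0 without overlap and 0 past the threshold. With 1 dog left out the median lay between -0.22 (without control 2) and 0.19 (without control 3). The 3 with the smallest p were SERPINB6 at 0.89, SERPINF1, the anti-angiogenic factor PEDF, at -1.07, and SERPINI1 at -0.70, which was -0.31 without control 2. Neutrophil elastase (ELANE) had 135, 95.8, 9.30 and 28.7 in affected dogs, against 49.1, 68.6, 49.2 and 77.7 in control dogs. Of 24 further S100 genes and partners, 13 were named and 12 tested, 9 higher and 3 lower, with a median of 0.25, 0 without overlap and 0 past the threshold. Without control 2 there were 5 higher and 7 lower, with a median of -0.01, so the direction of this list rested on that dog. The median was 0.39 without affected 4. S100B, a glial and cartilage protein, differed by -1.54, S100A1, abundant in heart muscle, by -0.87, and S100A4, found in fibroblasts and leukocytes, by 1.30. Without control 2, S100A1 was at -0.42 and S100A4 at 0.50.

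**Figure D4:**
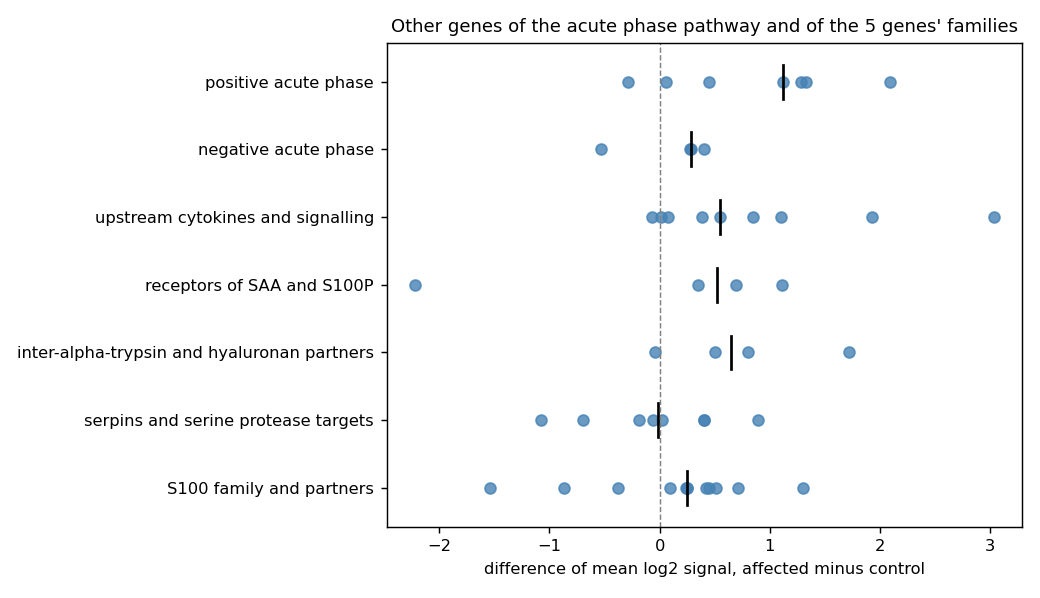
Difference of mean log2 signal, affected minus control (horizontal axis), for each tested gene (points) of 7 lists without the 5 genes themselves. Black ticks are list medians, and the dashed line is the median of all tested probe sets, 0.01. The medians ran from -0.02 for serpins and serine proteases to 1.12 for positive acute phase genes, which was 0.41 without control 2.

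No marker of another cell type passed the threshold in limma, and their levels are given beside the results. Macrophage and monocyte markers were 20 listed genes, of which 17 were named and tested. All 17 had a higher mean in affected dogs, 7 of them wholly above the controls, beside 2.35% of all tested probe sets, with a median difference of 1.93. Without control 2 the median was 1.17, with 17 higher and 7 wholly above. Without affected 2 or affected 4, 11 lay wholly above. With 1 dog left out, between 446 and 1059 of all 14705 tested probe sets did so, against 345 with all dogs. FCER1G, a signalling chain of Fc receptors, had 437, 164, 365 and 415 in affected dogs, against 85.4, 5.95, 21.3 and 8.69 in control dogs, and had the smallest adjusted p of the list, 0.238 in limma. The summed signal of the 17 ranged from 26181 to 56836 in affected dogs and from 2219 (control 2) to 24599 in control dogs. Of the defining markers, all measured, CD68 did not overlap, while CD163 and CSF1R did. Their part in the SAA1, SERPINA1 and S100P differences was not tested. For neutrophils, 4 of 20 listed markers were named, and the defining markers S100A8, S100A9 and CSF3R were not among them. The summed signal of those 4 ranged from 577 to 2913 in affected dogs and from 416 to 558 in control dogs, and the gelatinase MMP9 made up most of it in affected 1 and affected 4, with 978 and 1970. Only ITGAM of the 4 did not overlap, and it is also in the macrophage and monocyte list.

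Fat, epithelium, endothelium and muscle were measured in the same way. Adipocyte markers, 7 named of 13, had a lower mean in affected dogs in 5 of 6 tested genes, and in 4 of 6 without control 2. They summed to between 3939 and 6382 in affected dogs and between 6120 and 19686 in control dogs. PNPLA2, which differed by -0.015, was the largest signal in the sum in every affected dog, so the sum mostly follows that gene there. ADIPOQ, or adiponectin, had 164, 75.2, 157 and 208 in affected dogs, against 1586, 33.9, 9835 and 1884 in control dogs, so control 2 lay below every affected dog. Epithelial and mesothelial markers, 6 named of 15, summed to between 2852 and 3860 in affected dogs and between 1447 and 2234 in control dogs. PDPN, which lymphatic endothelium and fibroblasts also express, had 2891, 1405, 2077 and 2389 in affected dogs, against 1234, 634, 405 and 690 in control dogs, without overlap. It was the largest signal in the sum in every affected dog, and the other named genes of the list all overlapped. The median difference of the 4 tested was 0.16, so the sums do not show the list as a whole to be higher. KRT8, an epithelial keratin under the filter, had 206, 426, 60.9 and 230 in affected dogs, against 57.7, 70.6, 71.2 and 45.9 in control dogs. EPCAM was between 50.5 and 68.7 in affected dogs and between 58.9 and 78.6 in control dogs. Endothelial markers, 7 named of 13 and all tested, had a higher mean in affected dogs in 7 of 7, also without control 2. They summed to between 16246 and 28426 in affected dogs and between 8590 and 12111 in control dogs. Of the 7, 2 lay wholly above the controls (ENG and NOS3), beside 2.35% of all tested probe sets. Their median difference was 0.99, and 0.87 without control 2. Of all tested probe sets, 50.5% had a higher mean in affected dogs. Cardiac muscle markers, 12 named of 18, summed to between 26905 and 208915 in affected dogs and between 54063 and 254596 in control dogs. Of the 12, 11 had a lower mean in affected dogs (median difference -0.51), but only 2 did so without affected 3 (median 0.14). Leaflet stroma markers, 11 named of 15, summed to between 121113 and 165664 in affected dogs and between 49939 (control 2) and 149717 in control dogs. Of the 11, 9 had a higher mean in affected dogs (median difference 0.36), but only 4 did so without control 2 (median -0.07). The part of each in the 5 genes' values was not tested, and 0 of 8 listed erythroid markers were named.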

How the data were processed

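Total RNA of each leaflet went onto a single array. The authors deposited a linear intensity per probe set, and the submitters' processing notes name MAS5. Neither labels nor headers state its version or detection calls. Low MAS5 signals are imprecise. Every array had the same 2% trimmed mean, so it had been scaled before deposit.

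Signals were rescaled to that trimmed mean (factors from 0.999986 to 1.00001), floored at the 20th percentile of all signals, 34.2, and put on a log2 scale. Testing required a signal above the array's own 40th percentile in 4 or more of the 8 arrays, which left 14705 of 23836, after 77 control probe sets were removed. Groups were compared across all of these with limma (version 3.58.1, R 4.3.3), two-sided, using eBayes with a trend on intensity and Benjamini-Hochberg adjustment. The procedure was tested on simulated data. The number of arrays limits the precision.

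Other genes were taken at their brightest probe set. The exception was genes most like SAA1, S100P or SERPINA1, which were taken at their probe set with the highest r. For TMBIM6, PLEK and ACSL5 that was not the brightest. Of each list, the 3 genes with the smallest p, all positive acute phase genes and preset markers could be named. The choice of AGER, ITIH2, IL1B, TNF and JAK1 came after seeing values. ELANE was also named outside this rule. Leaving out each dog and other normalizations, floors and filters were tried. The 5 genes, the lists and this rule were chosen with earlier results of these data known.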

Additional observations from a re-analysis of the deposited data

Results flagged for a closer look

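In 86 groups of 4 dogs, 8 had 1 dog far from the other 3, where chance gives about 1 in 20. The groups covered only part of the named probe sets. They included groups wholly at the floor, in which no dog can stand apart. Control 2 was low in SAA1 (log2 signal 5.50, nearest other control 7.38), in SERPINA1 1597202_at (6.08, nearest 7.38) and in CLU (12.98, nearest 14.28). Control 1 was high in LOC403585 1584925_x_at (8.17, nearest 6.63), in IL6 (9.88, nearest 5.76) and in CXCL8 (9.85, nearest 5.30). Control 4 was the only control above the floor in LOC403585 1586126_x_at (5.98, floor 5.10). Affected 1 was high in CLU (15.43, nearest 14.52). Other named probe sets were not examined in this way. Among them was FCER1G, in which control 1 was the only control above the floor (6.42, floor 5.10).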

How the results depend on the processing

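The differences of the brightest probe set of each of the 5 genes moved by less than 1 SD of the dogs under the other settings. These were quantile normalization, median centring, other floors, a pseudocount of 16 and array weights. The replicate block is balanced and leaves a difference as it is. Leaving out 1 dog cannot move a difference by 1 SD in groups of this size, so neither is a check on that limit. Leaving out 1 dog gave 4.61 to 5.70 for SAA1, 3.48 to 4.35 for S100P, 2.60 to 3.69 for SERPINA1, 1.23 to 1.66 for ITIH3 and 0.93 to 1.77 for LOC403585. The number of the 5 genes' probe sets without overlap, 10, lay between 8 and 11 under the other settings and between 10 and 12 with 1 dog left out. Among dimmer probe sets, no floor put 1585198_x_at at 4.39 and 1585665_x_at at 3.90, while raising the floor to the 40th percentile put 1585198_x_at at 1.13, 1585665_x_at at 1.09 (then with overlap), 1586126_x_at at 2.44 and 1587111_at at 0.11. IL1B was at 3.44 with no floor. HPX turned to -0.017 under median centring and -0.078 with array weights, and lay between -0.29 (without affected 2) and 0.24 with 1 dog left out, at -0.019 without control 1 and -0.016 without control 2. The count past the threshold in limma was 0, and 4 with the replicate block: SAA1, S100P, UPP1 (adjusted p = 0.0441) and an unnamed probe set. SAA1 and S100P were picked on this same contrast, so nothing is read from their place among the 4. The dogs share only a number, and deviations of same-numbered dogs correlated at -0.12, 0.41, 0.022 and -0.013. The count was 1, an unnamed probe set, without control 1 (adjusted p = 0.01995), and 0 without each other dog. Without 1 dog, between 446 and 1059 tested probe sets lay wholly above the controls and between 440 and 846 wholly below, against 345 and 340 with all dogs, since fewer dogs overlap less often. Leaving dogs out of the gene lists and control 2 out of the correlations was chosen after seeing the data.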
